A study of Mus musculus with 26 samples.

Results

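The genes described here are 43 genes of mitosis and the kinetochore, chosen as a list of mouse gene symbols and matched to the Ensembl identifiers of the count tables. All 43 were found among 39179 gene entries, and all 43 passed the filter on low counts. They fall into 9 groups by role, which cover the chromosomes themselves, Cdk1 with its cyclins, mitotic kinases, the spindle checkpoint, the anaphase-promoting complex and mitotic proteolysis, the chromosomal passenger complex, the kinetochore and centromere, the kinesin motors, and spindle assembly with cytokinesis. The level of each gene is given as CPM, the usual unit that scales the counts of a library to a common total in genes, here after TMM normalization between libraries.

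The tissue was cortex of C57BL/6J mice fed a high-fat diet with 60% of its calories from fat (HFD) or a diet with 6% (Control). Stroke was a focal ischemia, and 3 days later the stroke core was dissected with 1 to 2 mm of the cortex around it, so each library mixes dead, injured and spared tissue. After 15 weeks of feeding there were 6 stroke libraries on HFD and 4 on Control, while sham cortex at 15 weeks was not analysed here. After 6 weeks there were 6 stroke libraries on HFD, 4 stroke libraries on Control, 3 sham libraries on HFD and 3 sham libraries on Control. The labels give no age or batch, and nothing in them ties a library to an animal of its own, so a p-value here reflects only how far libraries differ, a spread that may in part be technical. The age of the mice and the weeks on the diet cannot be told apart.

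In mitosis the duplicated chromosomes are condensed, attached to spindle microtubules through kinetochores and pulled to opposite poles before the cell is cut into daughters. Cdk1 bound to A- and B-type cyclins starts the process, the spindle checkpoint delays it until the kinetochores are attached, and the anaphase-promoting complex ends it by marking cyclin B and securin for destruction. Most of these genes are transcribed mainly in the G2 and M phases, so their mRNA is scarce in tissue whose cells do not divide. The adult cortex is such a tissue, while microglia, infiltrating macrophages, vascular cells, reactive astrocytes and oligodendrocyte precursors are known to divide after a stroke in mice. In whole tissue, a change in the number of cells of a type and a change in RNA per cell cannot be told apart.

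The libraries held between 11400882 and 16962682 counts in genes. The share of counts in a file that fell outside genes was between 18.9% and 22.6% in the 10 stroke libraries at 6 weeks and between 23.2% and 27.6% in the 6 sham libraries, without overlap. Both 6-week groups of stroke libraries held cortical neuron RNA, with summed levels of 7 excitatory neuron markers of 1602 to 1819 CPM on HFD and 1507 to 1857 CPM on Control, against 1969 to 2431 CPM in HFD sham and 1904 to 2116 CPM in Control sham. Stroke libraries stood apart from one another at 15 weeks. HFD replicate 1 and Control replicate 3 had summed levels of the 43 genes of 185 and 231 CPM, while the other 15-week stroke libraries were between 489 and 876 CPM. Calls, medians and spreads that use the 15-week libraries are therefore also given without these libraries. The strand setting of the authors' counting is not given in the sources used here, and 11 of the 43 genes share an exon with another gene, mostly on the opposite strand. Counts of Kif20a and its neighbour Cdc23, Ccna2 and Exosc9, Kif4 and Pdzd11, Cdca8 and 9930104L06Rik, Cdc20 and Elovl1, Prc1 and Rccd1, and Nusap1 and Oip5 could hold fragments of each other. A further uncertainty is that 10 genes have a similar transcript elsewhere, mostly a pseudogene with few counts. Apart from the neighbours named, more counts were found for 2700099C18Rik, with 409 over all libraries beside 1172 for Ndc80. Gm15697 had 195 beside 5333 for Kif11. Their part in the levels of Ndc80 and Kif11 was not tested.

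Stroke against sham at 6 weeks showed the largest differences. After stroke on HFD, 41 of the 43 genes rose and none fell at an adjusted p under 0.05 in edgeR's quasi-likelihood test, while 14.2% of the 16325 genes tested rose in that comparison. On Control, 35 rose and none fell, against 5.1% of all genes tested. The median log2 fold change of the 43 genes was 3.08 on HFD and 2.74 on Control, beside medians of -0.02 and 0.00 over all genes tested. The genes are a list of co-expressed cell cycle genes proposed with results of these data in view, so the counts describe the list and are no independent evidence of its direction.

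Library by library, the 43 genes together had summed levels of 443, 650.4, 589, 438, 549 and 495 CPM in replicates 1 to 6 of stroke on HFD and of 127, 99.1 and 120.1 CPM in the 3 HFD sham libraries. Stroke libraries on Control had 314, 549, 435 and 291 CPM, against 123, 121 and 117 CPM in Control sham. Every 6-week stroke library was above every sham library. The means were 527 ± 84.3 CPM (SD, n = 6) after stroke on HFD and 115 ± 14.5 CPM in HFD sham (SD, n = 3), and 397 ± 119 CPM (SD, n = 4) after stroke on Control and 120.3 ± 2.85 CPM in Control sham (SD, n = 3). Anln alone averaged 49.6 CPM in HFD sham and 50.1 CPM in Control sham. Without Anln, Incenp and Mad2l1 the mean sums were 441 CPM in stroke and 45.6 CPM in sham on HFD. On Control they were 319 and 50.6 CPM. Gene by gene, all HFD stroke libraries were above all HFD sham libraries for 42 of the 43 genes, with Incenp the exception, while 15.8% of all genes tested showed this. On Control this held for 40 genes, with Anln, Incenp and Mad2l1 overlapping, against 14.9% of all genes tested.

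**Figure D1:**
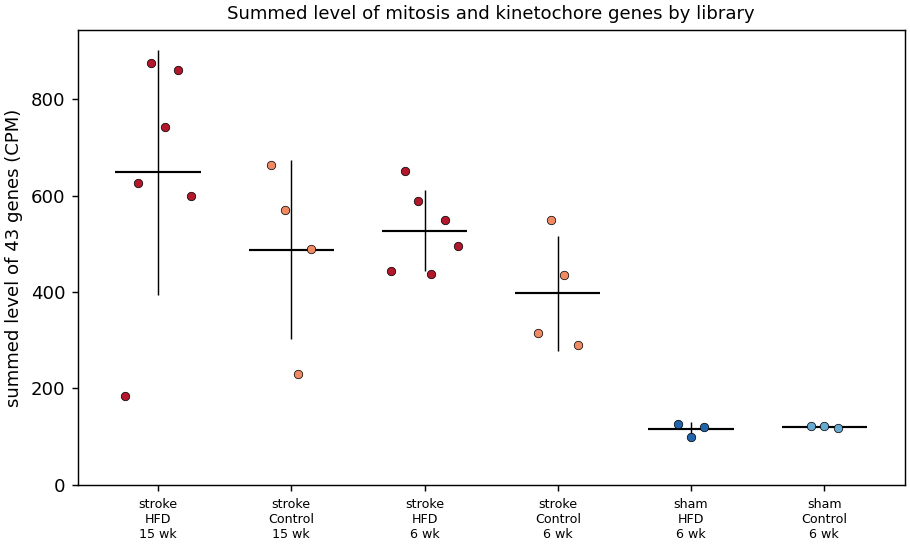
Summed level of the 43 genes in CPM (y axis, from 0) for each library (points) in the 6 groups (x axis), with the group mean (horizontal line) and SD (vertical line). All stroke libraries lie above the sham libraries, which sit between 99.1 and 127 CPM, and 1 library in each 15-week group lies far below the rest of its group.

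**Figure D2:**
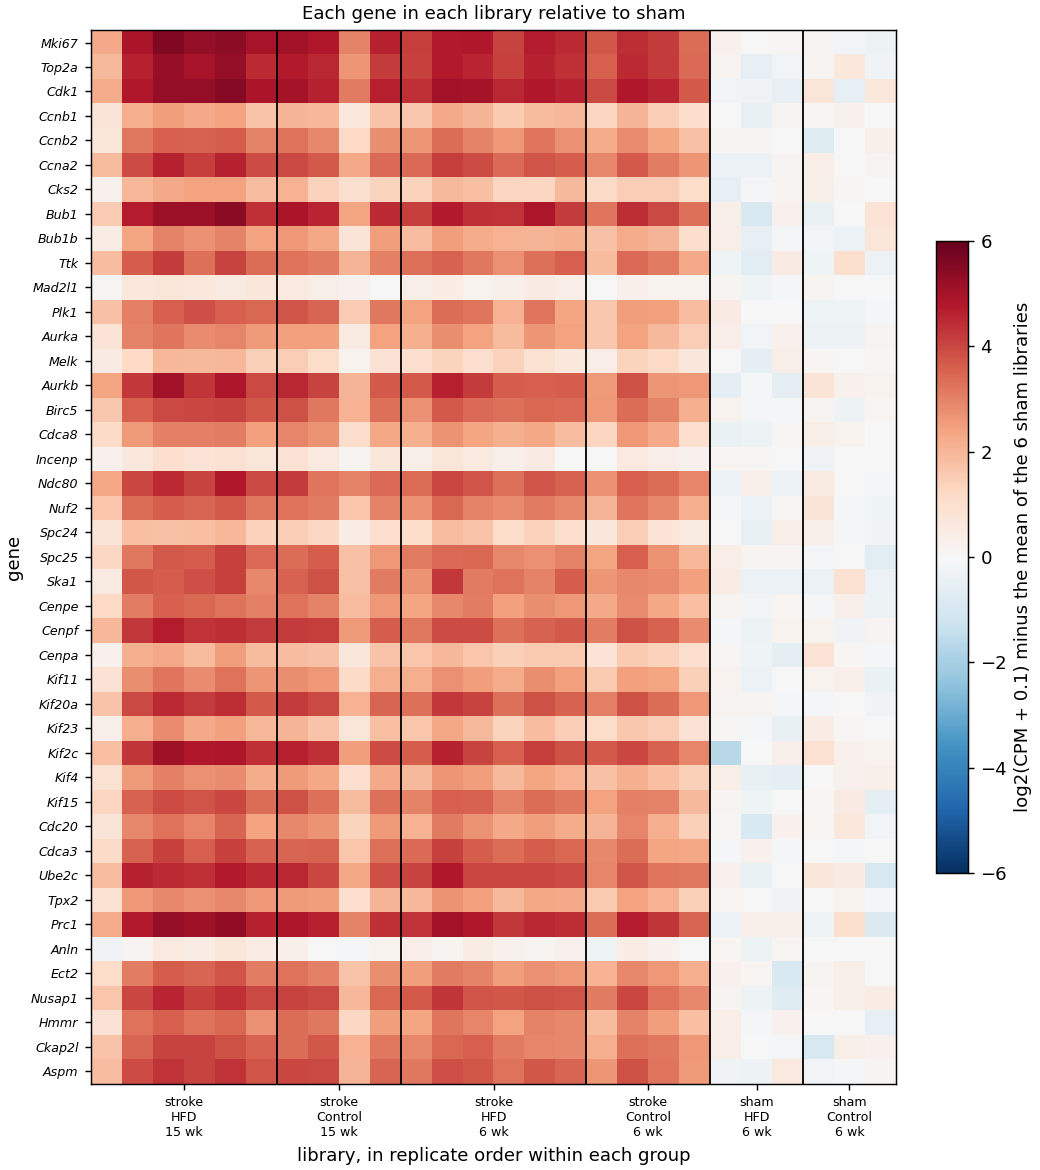
Each gene (rows, in role order) in each library (columns, by group), coloured by log2(CPM + 0.1) minus its mean over the 6 sham libraries. Nearly all rows are red in all stroke libraries, 3 rows (Mad2l1, Incenp and Anln) are pale throughout, and 1 column in each 15-week group is paler than its neighbours.

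The same fold changes sorted by role are drawn in the plot of log2 fold changes by gene. On HFD the fitted log2 fold changes ran between 0.28 (Anln) and 5.44 (Cdk1), and on Control between 0.13 (Anln) and 4.16 (Cdk1). Some large values rest on few sham counts. Aurkb, Kif2c, Ndc80, Bub1 and Ube2c had 4, 7, 8, 9 and 9 counts over the 3 HFD sham libraries. Over the 3 Control sham libraries they had 11, 15, 11, 12 and 12. Cdk1, Ttk and Plk1 had 11, 11 and 14 counts over HFD sham and 21, 15 and 10 over Control sham. The order of such genes by fold change is therefore uncertain. Of the genes that were not called, Anln and Incenp missed the threshold on both diets, with adjusted p-values of 0.207 and 0.124 on HFD and 0.709 and 0.145 on Control. Mad2l1, Cenpa, Melk, Kif23, Spc24 and Cks2 were called on HFD but not on Control. The call on one diet and not on the other is no test of a difference between the diets, which is given further on.

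**Figure D3:**
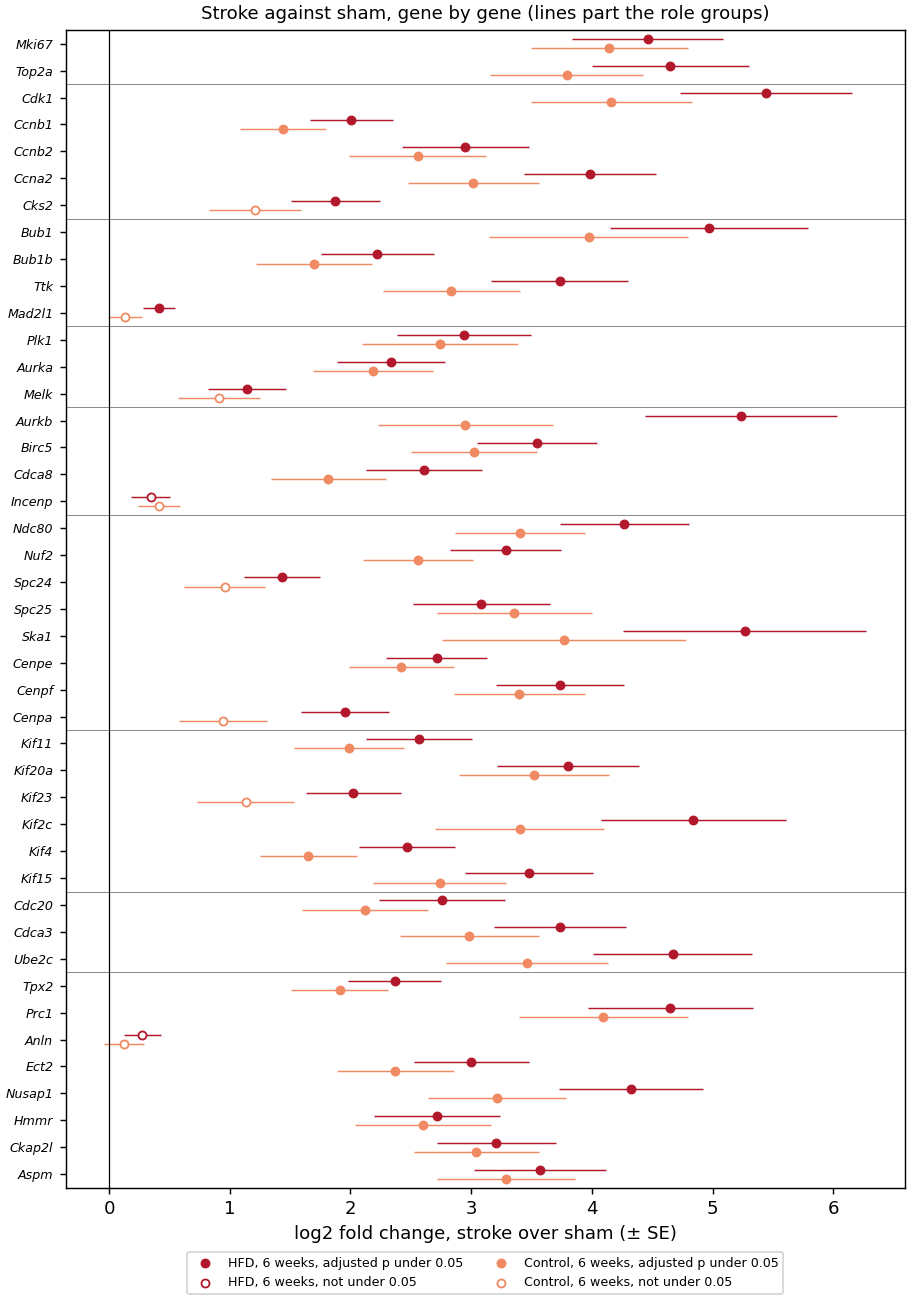
Log2 fold change of stroke over sham (x axis, bars are SE) for each of the 43 genes (y axis), on HFD (red) and on Control (orange), filled where the adjusted p was under 0.05. All points lie right of 0, between 0.13 and 5.44, and the open symbols are those of 2 genes on HFD and 8 genes on Control.

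Promoters of genes that are transcribed together in G2 and M often carry CCAAT boxes, which bind the factor NF-Y, and a cell cycle genes homology region, the CHR. Its letters are TTTGAA in the usual form, and the form with A in place of G, TTTAAA, is also known. The CHR binds the DREAM complex in resting cells and MuvB with B-Myb and FoxM1 in dividing cells. RefSeq windows on build GRCm38.p6, 250 bases before to 50 bases after each transcription start, were matched by symbol for 36 of the 43 genes and gave 38 windows, of which Ect2 and Prc1 have 2 overlapping windows each. The letters of the CCAAT box and of both CHR forms were searched on both strands, and no motif contains another. At least 2 CCAAT boxes were found in 57.9% of the 38 windows and in 11.7% of all 32851 windows. A CHR of either form was found in 84.2% of the 38 windows and in 27.6% of all windows. Both together, at least 2 CCAAT boxes and a CHR of either form, were found in 52.6% of the 38 windows and in 3.13% of all windows. The 250 bases before the start are printed for Top2a, Cdk1 and Ccnb2, which rose and have several of these letters, and for Mad2l1, which was called on HFD only and has none. Capitals mark the motifs, and on the other strand the CCAAT box reads ATTGG, and the usual CHR reads TTCAAA.
Top2a, chr11:99024190-99024439, minus strand: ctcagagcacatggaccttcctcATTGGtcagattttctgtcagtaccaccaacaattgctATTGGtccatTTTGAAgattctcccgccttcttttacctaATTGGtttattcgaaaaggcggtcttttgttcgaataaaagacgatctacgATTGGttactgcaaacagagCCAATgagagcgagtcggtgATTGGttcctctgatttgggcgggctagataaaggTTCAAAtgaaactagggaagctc
Cdk1, chr10:69352913-69353162, minus strand: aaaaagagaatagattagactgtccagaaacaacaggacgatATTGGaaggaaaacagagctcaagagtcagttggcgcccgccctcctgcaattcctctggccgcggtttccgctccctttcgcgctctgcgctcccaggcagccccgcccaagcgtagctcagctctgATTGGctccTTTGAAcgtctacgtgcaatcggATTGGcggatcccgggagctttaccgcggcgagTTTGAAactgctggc
Ccnb2, chr9:70421555-70421804, minus strand: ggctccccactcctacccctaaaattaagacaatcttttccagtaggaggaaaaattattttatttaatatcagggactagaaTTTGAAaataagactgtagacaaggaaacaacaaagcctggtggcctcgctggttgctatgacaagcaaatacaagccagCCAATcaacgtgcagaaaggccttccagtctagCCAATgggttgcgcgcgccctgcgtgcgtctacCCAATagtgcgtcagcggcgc
Mad2l1, chr6:66534971-66535220, plus strand: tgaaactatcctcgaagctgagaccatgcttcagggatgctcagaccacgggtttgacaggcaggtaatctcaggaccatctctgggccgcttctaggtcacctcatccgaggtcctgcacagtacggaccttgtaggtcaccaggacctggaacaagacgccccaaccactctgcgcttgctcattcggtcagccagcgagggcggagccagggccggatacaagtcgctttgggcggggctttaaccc

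The Top2a stretch holds 6 CCAAT boxes and 2 CHR of the usual form, the Cdk1 stretch 3 and 2, and the Ccnb2 window 3 and 2. In Ccnb2 the CCAAT boxes begin at positions -87, -54 and -21 from the start, at even steps, and its second CHR lies 5 bases after the start, outside the printed stretch. Of the 36 genes matched, 4 had none of these letters in the window, and they were Mad2l1, Melk, Nuf2 and Nusap1. Nuf2 and Nusap1 rose with log2 fold changes of 3.29 ± 0.46 and 4.32 ± 0.60 (SE) after stroke on HFD, so the genes without a match included large and small changes. Anln, called on neither diet, had 2 CHR of the usual form and 0 CCAAT boxes in its window. Cks2, called on HFD only, had 4 CCAAT boxes and 0 CHR. Matches thus occurred also in genes that missed a call. A match of letters is a description of the sequence and not a site shown to be bound.

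Among genes of the chromosomes, Mki67 (ENSMUSG00000031004) encodes the Ki-67 protein that coats mitotic chromosomes and is the usual marker of dividing cells. It had a lowest, median and highest level of 41.3, 60.4 and 69.5 CPM over the 6 stroke libraries on HFD, against 2.81, 2.34 and 2.62 CPM in HFD sham. On Control its levels were 32.1, 53.9, 44.8 and 25.3 CPM after stroke and 2.63, 2.098 and 1.88 CPM in sham. All stroke libraries thus lay far above all sham libraries, and Mki67 rose 22.04-fold on HFD (log2 fold change 4.46 ± 0.63, adjusted p = 0.000239) and 17.7-fold on Control (log2 fold change 4.15 ± 0.65, adjusted p = 0.00287, edgeR). Top2a, the topoisomerase that untangles sister DNA strands, was at 47.04, 60.96 and 74.6 CPM in HFD stroke libraries, against 2.95, 1.84 and 2.33 CPM in HFD sham. It was at 33.2, 61.7, 49.8 and 29.2 CPM after stroke on Control, against 2.97, 4.197 and 2.27 CPM in Control sham. The groups did not overlap on either diet, and the log2 fold changes were 4.65 ± 0.65 on HFD and 3.79 ± 0.63 on Control (SE).

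All 5 genes of Cdk1 and its partners rose on HFD and 4 of them on Control. Cdk1 (ENSMUSG00000019942), the kinase that drives entry into mitosis, was at 9.12, 11.4 and 14.5 CPM (lowest, median and highest) in HFD stroke libraries, against 0.288, 0.284 and 0.212 CPM in HFD sham. On Control it was at 6.68, 12.2, 10.3 and 5.46 CPM after stroke and 0.623, 0.2098 and 0.583 CPM in sham, so all sham libraries were under 1 CPM. Its log2 fold change in edgeR was 5.44 ± 0.71, adjusted p = 0.000196 on HFD and 4.16 ± 0.67, adjusted p = 0.00287 on Control. These were the largest fitted values of the 43 genes on each diet. They rest on 11 counts over HFD sham and 21 over Control sham, so the rank of Cdk1 is uncertain. Fitted values depend even more on few counts where a gene had almost none in sham, such as Ska1. Ccna2, cyclin A, was at 14.5, 17.99 and 25.03 CPM in HFD stroke libraries and at 1.01, 0.993 and 1.49 CPM in HFD sham, and at 10.1, 17.96, 11.8 and 8.69 CPM in Control stroke libraries and 1.73, 1.26 and 1.49 CPM in Control sham. Ccnb1, cyclin B1, was at 11.5, 14.7 and 18.4 CPM in HFD stroke libraries, against 3.67, 2.77 and 4.32 CPM in HFD sham, and at 9.42, 15.8, 10.8 and 7.899 CPM in Control stroke libraries, against 3.94, 4.55 and 3.69 CPM in Control sham. Its fold was smaller than that of Ccna2, at a log2 fold change of 2.01 ± 0.35, adjusted p = 0.000486 on HFD and 1.44 ± 0.36, adjusted p = 0.0173 on Control. Ccnb2, cyclin B2, rose by 2.95 ± 0.53 on HFD and 2.56 ± 0.57 on Control on the log2 scale. Cks2, a small subunit that helps Cdk1 hold its substrates, was at 2.44, 3.08 and 3.95 CPM in HFD stroke libraries and at 0.648, 0.851 and 1.06 CPM in HFD sham. On Control, Cks2 was at 2.18, 2.802, 2.82 and 2.11 CPM after stroke and 1.25, 0.979 and 0.971 CPM in sham, without overlap, yet its adjusted p of 0.0505 missed the threshold.

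The 3 mitotic kinases outside this group all rose on HFD, and Plk1 and Aurka also on Control. Plk1, the Polo kinase of centrosome maturation and of mitotic entry, had log2 fold changes of 2.94 ± 0.55, adjusted p = 0.000767 on HFD and 2.74 ± 0.64, adjusted p = 0.0128 on Control. Aurka, Aurora A of the spindle poles, was at 3.29, 4.75 and 6.14 CPM in HFD stroke libraries, against 1.08, 0.709 and 0.991 CPM in HFD sham, and at 2.67, 4.71, 3.43 and 2.44 CPM in Control stroke libraries, against 0.623, 0.629 and 0.906 CPM in Control sham. Melk, a kinase known from neural progenitors and embryonic cells of the mouse, showed a smaller difference. It was at 3.002, 3.94 and 5.19 CPM in HFD stroke libraries and 1.87, 1.28 and 2.48 CPM in HFD sham, with a log2 fold change of 1.14 ± 0.32, adjusted p = 0.0127. On Control it was at 2.53, 5.03, 4.49 and 3.16 CPM after stroke and 2.08, 1.89 and 2.07 CPM in sham, with an adjusted p of 0.0965.

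The spindle checkpoint genes split into 3 that rose on both diets and Mad2l1. Bub1, the kinase that recruits the checkpoint to kinetochores, rose by 4.97 ± 0.82 on HFD and 3.97 ± 0.82 on Control on the log2 scale, and Ttk, the Mps1 kinase at the top of the checkpoint, by 3.73 ± 0.56 on HFD and 2.84 ± 0.57 on Control. Bub1b encodes BubR1, which binds and blocks Cdc20. It was at 8.605, 10.4 and 13.5 CPM in HFD stroke libraries, against 3.098, 1.63 and 2.12 CPM in HFD sham, and at 8.23, 11.2, 9.95 and 4.94 CPM in Control stroke libraries, against 2.08, 1.82 and 3.95 CPM in Control sham. The groups did not overlap, and Bub1b was called on both diets, with an adjusted p of 0.0326 on Control.

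Mad2l1, which encodes the checkpoint protein Mad2, was at 10.7, 11.8 and 12.95 CPM in HFD stroke libraries, against 10.3, 7.66 and 8.703 CPM in HFD sham. On Control it was at 9.003, 11.4, 10.7 and 10.5 CPM after stroke and at 10.2, 8.95 and 9.38 CPM in sham, so the groups overlapped. Its log2 fold change was 0.41 ± 0.13, adjusted p = 0.0233 on HFD and 0.13 ± 0.14, adjusted p = 0.627 on Control. The HFD call was lost without HFD sham replicate 2 or HFD sham replicate 3.

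Anaphase depends on the anaphase-promoting complex, and all 3 genes of this group rose on both diets. Cdc20, the activator of the complex, was at 4.01, 4.999 and 8.34 CPM in HFD stroke libraries, against 0.937, 0.426 and 1.06 CPM in HFD sham, and at 3.87, 7.39, 4.403 and 2.57 CPM in Control stroke libraries, against 0.968, 1.399 and 0.777 CPM in Control sham. Cdca3, part of a ligase that marks the Cdk1 inhibitor Wee1 for destruction, was at 7.898, 9.18 and 13.4 CPM in HFD stroke libraries and 0.648, 0.851 and 0.637 CPM in HFD sham. Control stroke libraries had 5.77, 7.96, 4.05 and 3.82 CPM, against 0.692, 0.629 and 0.712 CPM in sham. Ube2c, the ubiquitin-conjugating enzyme of the complex, had the largest fitted change of the group, 4.67 ± 0.66, adjusted p = 0.000196 on HFD and 3.46 ± 0.67, adjusted p = 0.00524 on Control on the log2 scale. These values rest on 9 counts over HFD sham and 12 over Control sham.

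In the chromosomal passenger complex, the kinase and both partners that were measured beside the scaffold rose on each diet, and the scaffold was not called. Aurkb, the Aurora B kinase that corrects wrong attachments, rose by 5.23 ± 0.80 on HFD and 2.95 ± 0.73 on Control on the log2 scale, with 4 counts over HFD sham and 11 over Control sham. Birc5, survivin, was at 4.21, 6.72 and 7.99 CPM in HFD stroke libraries, against 0.648, 0.496 and 0.495 CPM in HFD sham, and at 3.73, 6.43, 4.93 and 2.83 CPM in Control stroke libraries, against 0.623, 0.4197 and 0.583 CPM in Control sham. Cdca8, borealin, rose by 2.61 ± 0.48 on HFD and 1.82 ± 0.48 on Control on the log2 scale. Incenp, the scaffold that holds the complex together, was at 10.5, 14.3 and 17.4 CPM in HFD stroke libraries and 11.5, 11.3 and 10.97 CPM in HFD sham. Its levels on Control were 10.4, 16.2, 14.3 and 12.8 CPM after stroke and 9.27, 10.4 and 10.5 CPM in sham. The stroke and sham ranges overlapped on both diets, and the log2 fold changes were 0.35 ± 0.16 on HFD and 0.42 ± 0.18 on Control.

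All 8 kinetochore and centromere genes rose on HFD and 6 of them on Control. Ndc80, Nuf2, Spc24 and Spc25 form the Ndc80 complex that grips the microtubule, and their log2 fold changes on HFD were 4.27 ± 0.54, 3.29 ± 0.46, 1.43 ± 0.31 and 3.08 ± 0.57. On Control the same 4 subunits had 3.41 ± 0.54, 2.56 ± 0.46, 0.96 ± 0.34 and 3.36 ± 0.64, and Spc24 missed the threshold with an adjusted p of 0.0776. Spc24 was at 2.49, 3.02 and 4.65 CPM in HFD stroke libraries, against 1.22, 0.851 and 1.63 CPM in HFD sham, and at 1.97, 3.57, 2.201 and 1.78 CPM in Control stroke libraries, against 1.52, 1.12 and 1.04 CPM in Control sham. Subunits of a single complex thus had fitted changes of unequal size, with the level of Spc24 in sham above that of its partners per length. In HFD sham Spc24 was at 0.4797 CPM per kilobase of exon, beside 0.0292 for Ndc80, 0.124 for Nuf2 and 0.142 for Spc25.

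Cenpf, a large protein of the outer kinetochore, was at 12.4, 17.3 and 21.3 CPM in HFD stroke libraries, against 1.22, 1.06 and 1.56 CPM in HFD sham. Control stroke libraries had 11.7, 20.1, 16.6 and 10.1 CPM of it, against 1.52, 1.12 and 1.49 CPM in sham. Cenpe, the kinesin that moves chromosomes to the spindle equator, was at 11.7, 14.7 and 18.8 CPM in HFD stroke libraries, against 2.45, 1.91 and 2.41 CPM in HFD sham, and at 10.8, 16.2, 11.4 and 7.83 CPM in Control stroke libraries, against 2.01, 2.73 and 1.75 CPM in Control sham. Neither gene overlapped between stroke and sham. Cenpa, the histone H3 variant that marks the centromere, was at 5.19, 5.93 and 7.69 CPM in HFD stroke libraries and 1.95, 1.56 and 1.203 CPM in HFD sham, with a log2 fold change of 1.96 ± 0.37, adjusted p = 0.000767. On Control its levels were 3.38, 5.73, 5.11 and 3.82 CPM after stroke and 3.32, 1.96 and 1.75 CPM in sham, where the lowest stroke library lay just above the highest sham library, and the adjusted p was 0.114. Ska1, which couples kinetochores to shrinking microtubules, had 1 count over the 3 HFD sham libraries and 118 over the 6 HFD stroke libraries. The ratio of pooled counts, scaled for depth, was 52.3, with a 95% counting interval between 9.20 and 2082. On Control there were 41 counts after stroke and 2 in sham, a ratio of 16.0 with an interval between 4.17 and 137. These intervals cover counting error only.

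All 6 kinesin motors rose on HFD and 5 on Control. Kif11, the Eg5 motor that pushes the spindle poles apart, was at 14.04, 17.6 and 21.4 CPM in HFD stroke libraries, against 3.602, 2.41 and 2.97 CPM in HFD sham, and at 9.28, 17.3, 16.3 and 8.49 CPM in Control stroke libraries, against 3.597, 3.85 and 2.27 CPM in Control sham. Kif20a, a motor of the central spindle, was at 8.28, 10.9 and 15.8 CPM in HFD stroke libraries and 0.865, 0.851 and 0.708 CPM in HFD sham. Its levels on Control were 6.82, 12.04, 8.63 and 5.07 CPM after stroke and 0.692, 0.769 and 0.647 CPM in sham. Kif2c, which takes microtubules apart at wrong attachments, Kif15, a second motor of spindle bipolarity, and Kif4, a motor of the chromosome arms, rose by 4.84 ± 0.76, 3.48 ± 0.53 and 2.47 ± 0.40 on HFD and by 3.40 ± 0.70, 2.74 ± 0.55 and 1.65 ± 0.40 on Control on the log2 scale. Kif23, the motor of the centralspindlin complex that positions the cleavage furrow, was at 4.96, 6.54 and 9.83 CPM in HFD stroke libraries, against 1.95, 1.702 and 1.34 CPM in HFD sham. On Control it was at 4.08, 5.99, 5.37 and 3.49 CPM after stroke and 2.63, 1.96 and 1.88 CPM in sham, with a log2 fold change of 1.13 ± 0.40, adjusted p = 0.0863.

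Of the 8 genes of spindle assembly and cytokinesis, 7 rose on both diets, and Anln on neither. Tpx2, which activates Aurora A and seeds spindle microtubules, was at 13.5, 17.6 and 23.01 CPM in HFD stroke libraries, against 3.75, 3.47 and 3.04 CPM in HFD sham, and at 10.5, 19.2, 14.97 and 9.74 CPM in Control stroke libraries, against 3.46, 4.13 and 3.24 CPM in Control sham. Prc1, which bundles the midzone microtubules, and Nusap1, a microtubule bundler near the chromosomes, had the largest changes of the group, 4.65 ± 0.68 and 4.32 ± 0.60 on HFD and 4.09 ± 0.70 and 3.21 ± 0.57 on Control on the log2 scale. Aspm, a spindle pole protein whose loss gives a small brain in humans and mice, rose by 3.57 ± 0.55 on HFD and 3.29 ± 0.57 on Control. Ckap2l, Ect2, the activator of RhoA at the furrow, and Hmmr, a spindle and hyaluronan-binding protein, rose by 3.21 ± 0.49, 3.00 ± 0.48 and 2.72 ± 0.52 on HFD. Their changes on Control were 3.04 ± 0.52, 2.37 ± 0.48 and 2.60 ± 0.56 on the log2 scale.

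Anln encodes anillin, the scaffold of the contractile ring, and in mouse brain it is also a gene of myelinating oligodendrocytes. It was at 54.9, 58.8 and 67.5 CPM (lowest, median and highest) in HFD stroke libraries, against 54.6, 40.8 and 53.4 CPM in HFD sham, and at 42.1, 67.8, 59.8 and 49.1 CPM in Control stroke libraries, against 50.7, 48.9 and 50.7 CPM in Control sham. No other of the 43 genes was as high in sham cortex. Its log2 fold changes were 0.28 ± 0.16 on HFD and 0.13 ± 0.17 on Control. Summed levels of 6 oligodendrocyte markers were 4138 to 5283 CPM in HFD stroke libraries and 3508 to 5107 CPM in HFD sham, and 3689.6 to 5046 CPM in Control stroke libraries and 4354 to 4913 CPM in Control sham, and 0 of these 6 markers were called in either comparison at an adjusted p under 0.05. Their part in the level of Anln was not tested. Anln, Incenp, Cks2 and Mad2l1, the 4 genes with the highest CPM per kilobase of exon in both sham groups, each missed the threshold on at least 1 diet. The mean of Anln was 60.1 ± 5.12 CPM (SD, n = 6) in stroke on HFD, against 49.6 ± 7.67 CPM (SD, n = 3) in HFD sham.

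**Figure D4:**
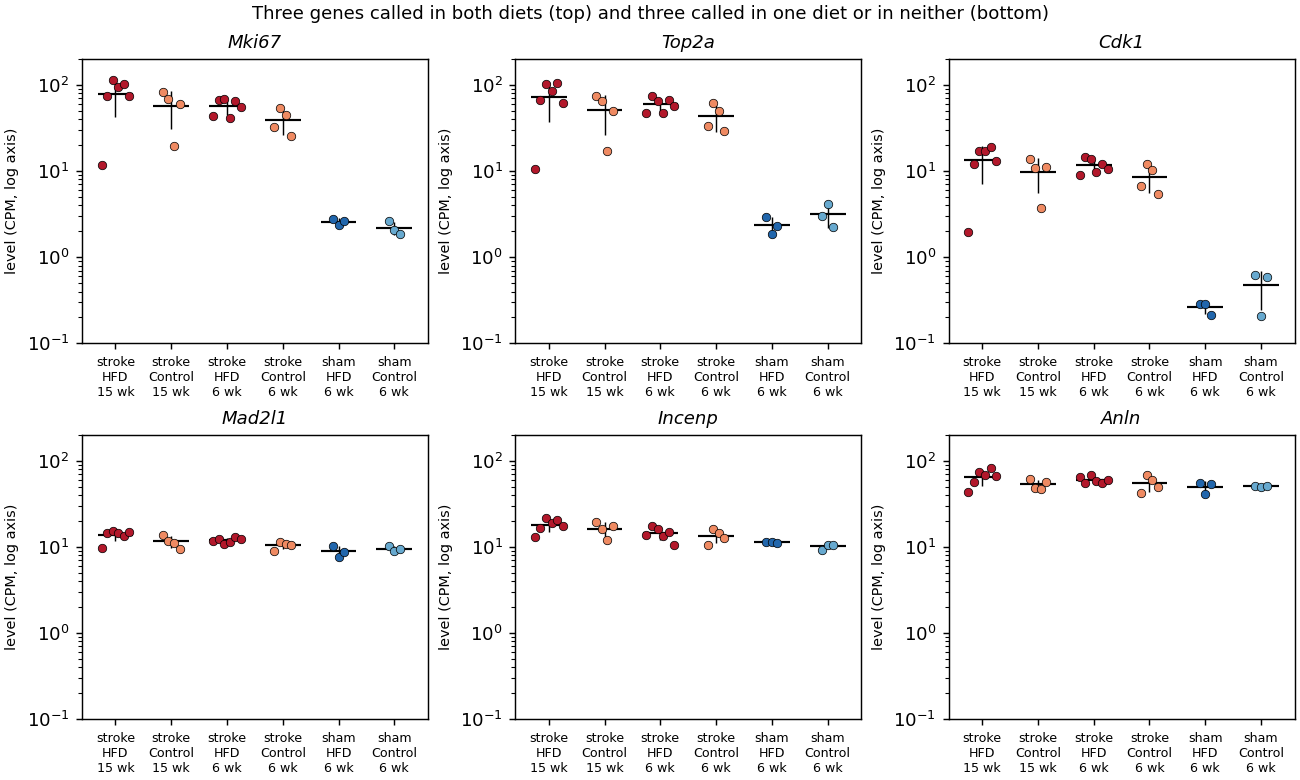
Level in CPM (y axis, log scale) of 6 genes in each library (points) of the 6 groups (x axis), with the group mean (horizontal line) and SD (vertical line). Mki67, Top2a and Cdk1 (top) separate stroke from sham by more than a factor of 10 in the means, while Mad2l1, Incenp and Anln (bottom) have sham levels near their stroke levels.

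Levels were compared between genes per kilobase of GENCODE M21 exon length. After stroke on HFD at 6 weeks, Top2a (6.63), Anln (6.63) and Mki67 (5.69) had the highest mean CPM per kilobase, followed by Cks2 (4.57) and Ccna2 (4.55). The lowest were Ska1 (0.463), Ndc80 (0.588) and Kif15 (0.633). In HFD sham the order was led by Anln (5.47), Incenp (2.6002), Cks2 (1.23) and Mad2l1 (1.06), and ended with Ska1 (0.008998). Top2a and Mki67, near the top after stroke, were at 0.264 and 0.257 CPM per kilobase in HFD sham. Exon lengths merge all annotated isoforms, which lowers the value of genes with long minor isoforms.

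The question whether diet changed these genes after stroke was tested directly. At 6 weeks, 0 of the 43 genes were called for HFD against Control in stroke libraries by edgeR, DESeq2 or voom, as were 0% of all genes tested by edgeR. All 43 fitted log2 fold changes were above 0, between 0.09 and 0.96 with a median of 0.46. Of the 43 genes 3 had an unadjusted p under 0.05, near the 6.99% of all genes tested. Those 3 were Aurkb (0.96 ± 0.42, unadjusted p = 0.032), Ube2c (0.87 ± 0.38, unadjusted p = 0.0332) and Cdca3 (0.82 ± 0.37, unadjusted p = 0.0346), all with an adjusted p of 0.667. Aurkb was at 2.95, 3.15 and 6.32 CPM (lowest, median and highest) in stroke on HFD and at 1.41, 3.502, 1.497 and 1.45 CPM in stroke on Control, and these ranges overlapped. Ube2c was at 4.69, 5.06 and 8.82 CPM on HFD and 2.39, 4.27, 2.91 and 2.76 CPM on Control. Ube2c was the single gene of the 43 whose HFD stroke libraries all lay above all Control stroke libraries, while 1.04% of all genes tested showed this. The 43 values share libraries and rise and fall together from library to library, so the 43 signs are not independent of one another. The summed level gave 527 ± 84.3 CPM on HFD and 397 ± 119 CPM on Control (SD, n = 6 and n = 4), and the ranges of the libraries overlapped. Leaving out 1 library at a time gave medians between 0.31 and 0.70, the highest without Control stroke replicate 2, and without Control stroke replicate 1 the values above 0 numbered 41.

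At 15 weeks again 0 of the 43 genes were called for HFD against Control in stroke libraries by edgeR, DESeq2 or voom, with 0% of all genes called by edgeR. All 43 fitted log2 fold changes were above 0, between 0.14 and 0.66 with a median of 0.43. Of the 43 genes 3 had an unadjusted p under 0.05, near the 7.96% of all genes tested. Those were Melk (0.61 ± 0.26, adjusted p = 0.601), Spc24 (0.55 ± 0.25, adjusted p = 0.613) and Anln (0.29 ± 0.14, adjusted p = 0.628). Melk was at 2.71, 6.48 and 7.86 CPM on HFD and 5.54, 4.23, 2.25 and 3.61 CPM on Control at 15 weeks, with overlap. The summed level was 648 ± 254 CPM on HFD and 488 ± 186 CPM on Control (SD, n = 6 and n = 4). Without the low library of each group it was 741 ± 128 CPM on HFD and 574 ± 87.4 CPM on Control (SD, n = 5 and n = 3), and the ranges still overlapped. The median log2 fold change was then 0.40, and still 0 genes were called. Each low library moved that median on its own, to 0.64 without HFD replicate 1 and to 0.19, with 41 values above 0, without Control replicate 3.

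In sham cortex 0 of the 43 genes were called for HFD against Control, and 0% of all genes. None of the 43 genes had an unadjusted p under 0.05, beside 4.79% of all genes tested. With the filter applied to the sham libraries alone, only 32 of the 43 passed. The rest passed only with the stroke libraries included and had few sham counts. They could hardly reach that threshold here, so the 0 is no evidence that diet left them unchanged. Of the fitted values 14 were above 0 and 29 below, and the median was -0.11. DESeq2 and voom also called 0 of the 43. The smallest p-values were those of Cenpa (-0.57 ± 0.43, adjusted p = 0.966), Aurkb (-1.31 ± 1.28, adjusted p = 0.967) and Incenp (0.16 ± 0.19, adjusted p = 0.971). Sham Aurkb lay at 0.07205, 0.142 and 0.0708 CPM on HFD and 0.346, 0.2098 and 0.194 CPM on Control, a level of a few counts per library at which only large differences could be detected.

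The difference between diets in the response to stroke was tested as an interaction of surgery and diet at 6 weeks. Of the 43 genes 0 were called, as were 0% of all genes, and 0 had an unadjusted p under 0.05, beside 5.6% of all genes. The median of the interaction, HFD minus Control on the log2 scale, was 0.58 and 41 values were above 0. Cenpa (1.01 ± 0.52, adjusted p = 0.832), Aurkb (2.28 ± 1.35, adjusted p = 0.832) and Kif23 (0.89 ± 0.56, adjusted p = 0.832) had the smallest p-values. DESeq2 and voom called 0 of the 43 as well. The calls on HFD alone of Mad2l1, Cenpa, Melk, Kif23, Spc24 and Cks2 are therefore not shown to differ between the diets.

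Feeding time was compared within stroke libraries of each diet. The share of counts outside genes was 22.7% to 32.1% in 15-week and 18.9% to 22.6% in 6-week stroke libraries, without overlap. Weeks thus went together with this share. On HFD, 0 of the 43 genes were called for 15 against 6 weeks by edgeR, beside 2.35% of all genes tested, and 2 had an unadjusted p under 0.05, beside 17.7% of all genes. The median log2 fold change was 0.31 and 42 values were above 0, with Incenp (0.32 ± 0.13, adjusted p = 0.179), Melk (0.53 ± 0.23, adjusted p = 0.227) and Cenpf (0.58 ± 0.30, adjusted p = 0.319) at the smallest p-values. On Control, 0 were called, beside 0.564% of all genes, and 1 had an unadjusted p under 0.05, beside 16.8% of all genes. There the median was 0.34 with 42 values above 0, and the smallest p-values were those of Plk1 (1.09 ± 0.41, adjusted p = 0.191), Aurkb (0.84 ± 0.46, adjusted p = 0.359) and Incenp (0.26 ± 0.16, adjusted p = 0.4). DESeq2 called 0 of the 43 on both diets, and voom with sample weights called 6 of the 43 higher on HFD and 0 on Control. In that voom fit on HFD, 4.65% of all genes were called higher and 11.5% in either direction. With the share of counts outside genes as a covariate in edgeR, 0 of the 43 and 0% of all genes were called on either diet. Plk1 on Control had 4.96, 4.098, 0.965 and 3.21 CPM at 15 weeks and 1.06, 2.04, 1.94 and 1.25 CPM at 6 weeks, and replicate 3 of the 15-week group was the lowest of both groups.

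Counts and medians for feeding time changed with single libraries. Without HFD replicate 1 of the 15-week stroke group, 4 of the 43 genes were higher at 15 weeks on HFD, while 2.84% of all genes were called higher and 8.01% in either direction. Without that library and Control replicate 3 of the 15-week stroke group, 17 of the 43 genes were higher on HFD, while 5.39% of all genes were called higher and 10.5% in either direction. On Control, 4 of the 43 were then higher, while 1.82% of all genes were called higher and 3.15% in either direction. The median log2 fold change was then 0.52 on HFD and 0.59 on Control. Leaving out 1 library at a time, the median on HFD was between 0.19 (without 15-week replicate 5) and 0.51 (without 15-week replicate 1). On Control it was between 0.14 (without 15-week replicate 1) and 0.61 (without 15-week replicate 3). These libraries were left out after their low levels had been seen, and leaving out low values raises the mean of their group, so these counts describe how far the result rests on them. The interaction of diet and weeks in stroke had 0 calls by edgeR, DESeq2 and voom, with 0% of all genes called. At an unadjusted p under 0.05 there were 0 of the 43, beside 4.85% of all genes. Its median was -0.01, it was -0.05 without both low libraries, and it lay between -0.26 and 0.17 with 1 library left out, so its sign was not stable. Melk (0.49 ± 0.37), Plk1 (-0.60 ± 0.51) and Cdca3 (-0.40 ± 0.51) had the smallest p-values, all with an adjusted p of 0.9995.

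**Figure D5:**
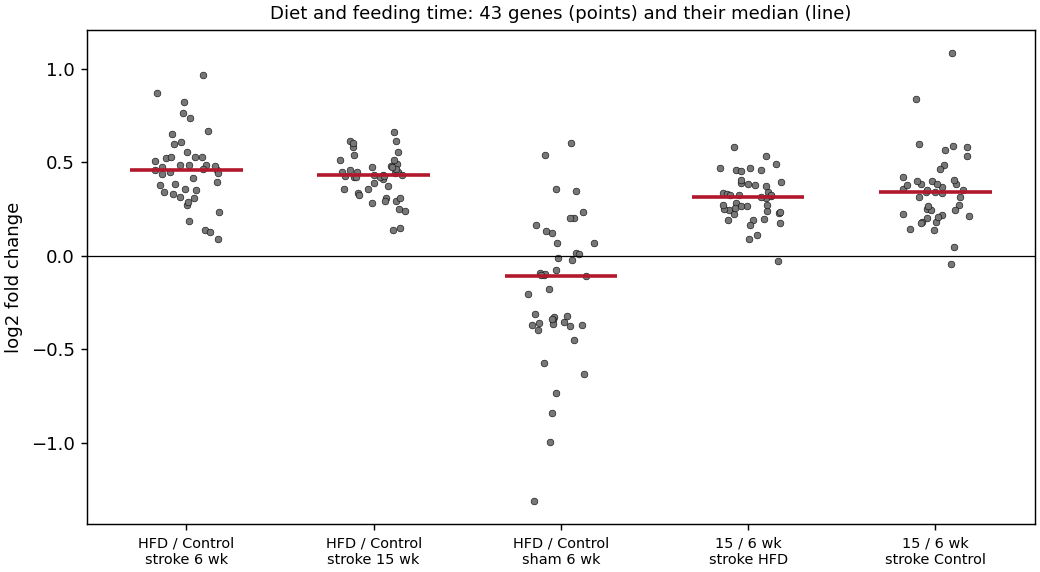
Log2 fold change (y axis) of each of the 43 genes (points) for HFD over Control and for 15 over 6 weeks (x axis), with the median as a line. The medians are 0.46, 0.43, -0.11, 0.31 and 0.34 in the order drawn, and no gene was called in any of the 5 comparisons.

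Levels of the 43 genes moved together from library to library within a group. Among stroke libraries on Control at 6 weeks, replicate 2 was the highest for 42 of the 43 genes and replicate 4 the lowest for 28. Among those on HFD at 6 weeks, replicate 2 was the highest for 31 genes. At 15 weeks, HFD replicate 1 was the lowest of its group for all 43 genes and Control replicate 3 for 42. HFD replicate 1 still lay above every sham library for 36 of the 43 genes and Control replicate 3 for 40, and each lay below every 6-week stroke library for 36. In contrast, 15-week HFD replicates 3 and 5 lay above every 6-week stroke library for 40 and 41 genes.

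The spread between libraries differed by gene and group. The coefficient of variation over libraries had a median over the 43 genes of 42.9% in 15-week stroke on HFD and 43.2% in 15-week stroke on Control, beside 21.0% in 6-week stroke on HFD and 32.7% in 6-week stroke on Control. Without the low library of each 15-week group the medians there were 19.9% on HFD and 19.2% on Control, so 1 library carried much of that spread. With all libraries, Mad2l1 varied the least in 3 of these groups, at 14.7% in 15-week stroke on HFD, 6.83% in 6-week stroke on HFD and 9.73% in 6-week stroke on Control, and Anln the least in 15-week stroke on Control, at 12.6%. Ska1, with few counts, varied the most on HFD, at 55.7% at 15 weeks and 45.5% at 6 weeks.

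Markers of cell types that can divide after stroke were counted in the comparisons of stroke and sham. There 14.2% of all genes tested rose on HFD and 5.1% on Control. Summed levels of 8 microglia markers were 690.2 to 885 CPM in 6-week stroke on HFD against 285 to 325 CPM in HFD sham, and 535 to 821 CPM in 6-week stroke on Control against 299 to 319.8 CPM in Control sham, and all 8 rose on each diet. For 8 monocyte and macrophage markers the sums were 130.1 to 358 CPM in HFD stroke against 18.6 to 21.8 CPM in HFD sham, and 79.3 to 244 CPM in Control stroke against 19.7 to 24.3 CPM in Control sham, with 8 and 4 markers called higher. Of 7 pericyte and fibroblast markers 4 rose on HFD and 1 on Control, of 8 endothelial markers 4 and 0, of 6 oligodendrocyte precursor markers tested 4 and 0, and of 5 neural progenitor markers tested 2 and 0. Of 8 astrocyte markers 3 rose and 1 fell on HFD, and 2 rose on Control. Lymphocyte markers were near 0, with summed levels of 2.02 to 7.21 CPM in HFD stroke and 1.21 to 7.08 CPM in HFD sham. On Control the sums were 2.95 to 9.36 CPM in stroke and 2.52 to 7.25 CPM in sham. Cd3e, Cd3d, Cd8a and Nkg7 were at 0 in every sham library. In each stroke group, every lymphocyte marker had counts in at least 1 library. In the low 15-week libraries, the monocyte and macrophage sum was 36.8 CPM for HFD replicate 1 and 58.5 CPM for Control replicate 3, against 233 to 540 CPM in the other 15-week stroke libraries. The part of these cells in the levels of the 43 genes was not tested.

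Choroid plexus markers were high in single libraries, at 936 CPM in 6-week HFD stroke replicate 6 and 267 CPM in HFD sham replicate 2. Without both libraries 39 of the 43 genes rose on HFD, while 1339 of all 16547 genes then tested rose. The calls of Mad2l1 and Melk were lost. When the share of counts outside genes entered the fit as a covariate, 39 rose on HFD and 30 on Control. Of all 16325 genes tested, 1408 then rose on HFD and 428 on Control, beside 2324 and 833 without the covariate.

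Most of the other mitosis genes tested also rose on HFD, and fewer than that on Control. Of 73 further mitosis genes, all tested, 52 rose and 1 fell on HFD, and 32 rose and 1 fell on Control. Of all 16325 genes tested, 2324 (14.2%) rose and 1445 fell on HFD, and 833 (5.1%) rose and 420 fell on Control. The gene that fell on each diet was Wee1, the kinase that inhibits Cdk1, with log2 fold changes of -0.31 ± 0.11, adjusted p = 0.0383 on HFD and -0.45 ± 0.12, adjusted p = 0.0221 on Control. The smallest p-values on HFD were those of Tacc3, a spindle microtubule protein (1.73 ± 0.26, adjusted p = 0.000244), Dlgap5, a spindle assembly factor (4.83 ± 0.72, adjusted p = 0.000265), and Pbk, a mitotic kinase (4.26 ± 0.64, adjusted p = 0.000282).

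Of 10 transcription factors of G2 and M genes, 4 rose and 1 fell on HFD, and 2 rose on Control, where 14.2% and 5.1% of all genes tested rose. Foxm1, the activator of late cell cycle genes, was at 4.16 ± 1.41 CPM in HFD stroke (SD, n = 6) and 0.664 ± 0.143 CPM in HFD sham (SD, n = 3), and rose by 2.63 ± 0.46 on HFD and 2.14 ± 0.51 on Control on the log2 scale. Mybl2, B-Myb, had 1.52 ± 0.49, adjusted p = 0.027 on HFD and 1.03 ± 0.53, adjusted p = 0.245 on Control. The MuvB subunit Lin9 had 0.50 ± 0.13, adjusted p = 0.00699 on HFD and 0.34 ± 0.14, adjusted p = 0.122 on Control, while Lin37, Lin52 and Lin54 had -0.21 ± 0.12, -0.09 ± 0.10 and -0.08 ± 0.08 on HFD and were called on neither diet. The retinoblastoma relatives of the DREAM complex differed. Rbl1, p107, itself a cell cycle gene, rose by 1.63 ± 0.35 on HFD and 1.48 ± 0.38 on Control, while Rbl2, p130, the relative of resting cells, had -0.20 ± 0.07, adjusted p = 0.0384 on HFD and -0.10 ± 0.08, adjusted p = 0.488 on Control. E2f4 and Tfdp1, the E2F and its partner in DREAM, had 0.10 ± 0.11 and 0.07 ± 0.06 on HFD and were called on neither diet.

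Of 8 G1 cyclins and kinases, 4 rose on HFD and 1 on Control, beside 14.2% and 5.1% of all genes tested. Ccnd1, cyclin D1, rose on both, by 1.09 ± 0.19 on HFD and 0.84 ± 0.20 on Control on the log2 scale, and Cdk2, Cdk4 and Ccne2 on HFD, by 1.74 ± 0.35, 0.58 ± 0.15 and 0.35 ± 0.11. Among 6 CDK inhibitors that passed the filter on low counts, Cdkn2c, p18, rose by 1.86 ± 0.30 on HFD and 1.13 ± 0.31 on Control. Cdkn1a, p21, had 0.24 ± 0.28, adjusted p = 0.567 on HFD and -0.15 ± 0.29, adjusted p = 0.81 on Control. Cdkn1b, p27, had -0.11 ± 0.08 on HFD and -0.08 ± 0.09 on Control, and Cdkn1c, p57, had -0.11 ± 0.17 on HFD and 0.07 ± 0.19 on Control. Cdkn2b and Cdkn2d had 0.63 ± 0.61 and 0.00 ± 0.07 on HFD, and -0.32 ± 0.60 and -0.14 ± 0.08 on Control. None of these 5 was called on either diet, and Cdkn2a did not pass the filter on low counts.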

How the data were processed

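RNA was extracted with Trizol and sequenced as stranded total RNA libraries, per the labels' protocols. The submitters' processing notes name Trim Galore, STAR, featureCounts, HTSeq and the build mm9, with no role or version. The authors deposited raw counts, whole numbers for each Ensembl gene and library, not normalized. Between 45.7% and 58.2% of each file's counts stood in 5 summary entries, which entered neither the library sizes nor the tests. Symbols came from GENCODE M21 and matched 37607 of 39179 identifiers.

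In edgeR 4.0.16 (R 4.3.3), filterByExpr with a minimum count of 10 left 16325 genes. The robust quasi-likelihood fit used TMM factors, took in all 26 libraries and gave each group its own mean. The 9 comparisons were adjusted by Benjamini-Hochberg over all genes tested, at 0.05. An SE is the size of the log2 fold change divided by the square root of F. The fit was tested on simulated counts. Alternatives were RLE factors, DESeq2 1.42.0, voom (limma 3.58.1), 2 other filters, a non-robust fit, a covariate, only the groups compared and each library left out. Leaving out the low 15-week or the choroid plexus-rich libraries was chosen after seeing the data.

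Between any pair of libraries of 1 group the chi-square of the counts was 3.34 to 70.2 times its degrees of freedom. Depth was 11400882 to 16962682 counts in genes. Counting intervals are exact, at 95%. Similar transcripts had at least 90% identity over at least 20% of the transcript. Genes named are all 43 members. Levels at 6 weeks are given for the 2 of highest mean level in each role group and for those whose calls differ from most. They are given per library, or as lowest, median and highest over the 6 HFD stroke libraries. The 3 smallest p-values are named where nothing was called. Of the other lists, the 4 smallest p-values, of which 1 is not reported here, and every transcription factor and CDK inhibitor are named. The members, lists, tests and alternatives were chosen with earlier results of these data known.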

Additional observations from a re-analysis of the deposited data

Results flagged for a closer look

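The search for a library far from the others of its group took the summed level, the 2 genes of highest mean level in each role group, and Ska1. It covered 80 groups of 4 or 6 stroke libraries, not all printed above. It found 6 such values, where chance alone gives about 1 in 20 independent groups. These groups are not independent, because the genes share libraries and move together. The count of 6 therefore cannot be weighed against chance. At 15 weeks, HFD stroke replicate 1 was far below the other 5 libraries for Birc5 (1.89 CPM, others between 7.65 and 10.5), Cenpf (5.51 CPM, others between 25.6 and 37.1), Mad2l1 (9.70 CPM, others between 13.2 and 15.1) and Tpx2 (6.58 CPM, others between 21.5 and 26.7). Control stroke replicate 3 at 15 weeks was far below the other 3 libraries for Aurka (1.21 CPM, others between 4.66 and 4.89). HFD stroke replicate 2 at 6 weeks was far above the other 5 for Cdca3 (13.4 CPM, others between 7.90 and 9.81). Both low 15-week libraries also had the lowest microglia and macrophage marker sums of their groups, and the cause was not tested.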

How the results depend on the processing

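Single fold changes were followed under the alternatives for all 43 genes in stroke against sham, and for the 3 genes of smallest p in each other comparison. None of these turned its sign, but genes of smallest p are the least likely to. Other genes did turn. For 15 against 6 weeks on Control, 38 of 43 values were above 0 without 15-week replicate 1, beside 42 with all libraries. The median of the interaction of diet and weeks, near 0, lay on either side of it. The count of the 43 genes called after stroke on HFD was between 39 and 42 and on Control between 24 and 40 over all alternatives, beside 41 and 35. Of all genes tested, 1339 to 3128 rose on HFD and 189 to 1676 on Control over the same alternatives, beside 2324 and 833. Leaving out 1 library at a time gave 39 to 41 on HFD and 24 to 36 on Control, with 26 without Control stroke replicate 2 and 24 without Control sham replicate 1 or 2. Of all genes tested, 1398 to 2362 on HFD and 189 to 938 on Control then rose. For 15 against 6 weeks on HFD, voom with sample weights called 6 genes (and 4.65% of all genes higher), leaving out 1 library called 0 to 4 (4 without the 15-week HFD stroke replicate 1, and 2.84% of all genes higher), and without both low 15-week libraries 17 were called (and 5.39% of all genes higher). On Control that last setting called 4 genes, and every other setting called 0. Diet and interaction comparisons had 0 calls among the 43 genes under every alternative, leaving out 1 library at a time included. Of all genes tested, at most 0.0613% were called in them, by DESeq2 for diet in 15-week stroke. Of the single-gene values followed in this way, 1775 kept their side of the threshold, 58 lost it and 26 gained it. No paired analysis was possible because the labels give no replicate numbers that groups share. Genes with a few counts in sham, such as Ska1, are limited by depth. The search of protein sequences for degradation signals was not run.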
